A study of Mus musculus with 2 samples.

Results

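The genes described here encode the ligands and receptors of the epidermal growth factor (EGF) family, measured by RNA-seq in whole mouse uterus. Rows were taken by gene symbol: 6 ligands (Areg, Hbegf, Ereg, Btc, Tgfa and Egf) and 4 receptors (Egfr, Erbb2, Erbb3 and Erbb4). All 10 symbols were found once each among the 20634 genes listed. The study holds 2 libraries, 1 from uteri labelled Mettl3 f/f and 1 from uteri labelled Mettl3 ed/ed. Females were 6 to 8 weeks old, had mated with fertile males, and were killed on gestational day 4, the plug day being day 1. What f and ed stand for, the driver of any deletion, the strain and the number of animals pooled are not stated in the labels.

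Ligands of this family are made as membrane-bound precursors and are released by ADAM proteases. Released or membrane-bound ligand brings ErbB receptors together in pairs, whose kinases then start the RAS-ERK and PI3K-AKT relays. EGFR binds all 6 ligands, ERBB4 binds some of them, ERBB3 binds neuregulins and has little kinase activity, and ERBB2 has no known ligand and acts as a partner. In the mouse uterus before implantation Areg is known as a progesterone-induced gene of the luminal epithelium. Hbegf is known for its expression in luminal epithelium beside the attaching blastocyst, and Egfr for a role in the stroma. Mettl3, the targeted gene, encodes the enzyme that places N6-methyladenosine (m6A) on messenger RNA.

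Values are FPKM, fragments scaled by transcript length and by the mapped fragments of the library, a scale on which levels of different genes can be set side by side. Mettl3 itself stood at 10.6 FPKM in the f/f library and 10.2 FPKM in ed/ed, so its transcript level did not separate the libraries and directions rest on their labels. A value for the whole gene does not show whether part of it is missing. The f/f library held an estimated 18300000 fragments, and the ed/ed library 17300000. A gene was compared if it reached 1 FPKM in either library, which 12165 genes did, and was called higher or lower when its ratio of ed/ed to f/f, with 1 FPKM added to each level, passed 2-fold. There was 1 library per genotype, so no test was possible, and intervals below are 95% counting intervals that hold no spread between animals. Over all genes compared the median log2 ratio was -0.26, and 30.1% of calls were on the higher side, a share that became 59.4% after scaling by the median ratio. Epithelial, stromal and myometrial markers were present in both libraries, whereas the embryo genes Pou5f1, Nanog and Cdx2 and the steroid enzyme gene Cyp17a1 were listed at 0 in both. Of the other ovary genes, Star stood at 0.667 and 2.29 FPKM in f/f and ed/ed and Cyp11a1 at 0.149 and 0. Ovgp1, a gene of oviduct secretory cells, stood at 41.0 and 60.8 FPKM in f/f and ed/ed.

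Of the 10 genes, Egfr was lower by 2-fold in ed/ed and Btc was higher. Areg, Hbegf, Tgfa, Erbb2 and Erbb3 lay within 2-fold. Ereg and Egf did not reach 1 FPKM in either library, and Erbb4 was listed at 0 in both. Of all genes compared, 6.22% were called lower and 2.68% called higher. The family therefore had 1 lower and 1 higher call among 7 genes compared, and Btc was among these 7 only through its level in ed/ed, where it was high. Because whole uterus was used, fewer cells of a type and less RNA per cell cannot be told apart for any of these genes.

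**Figure D1:**
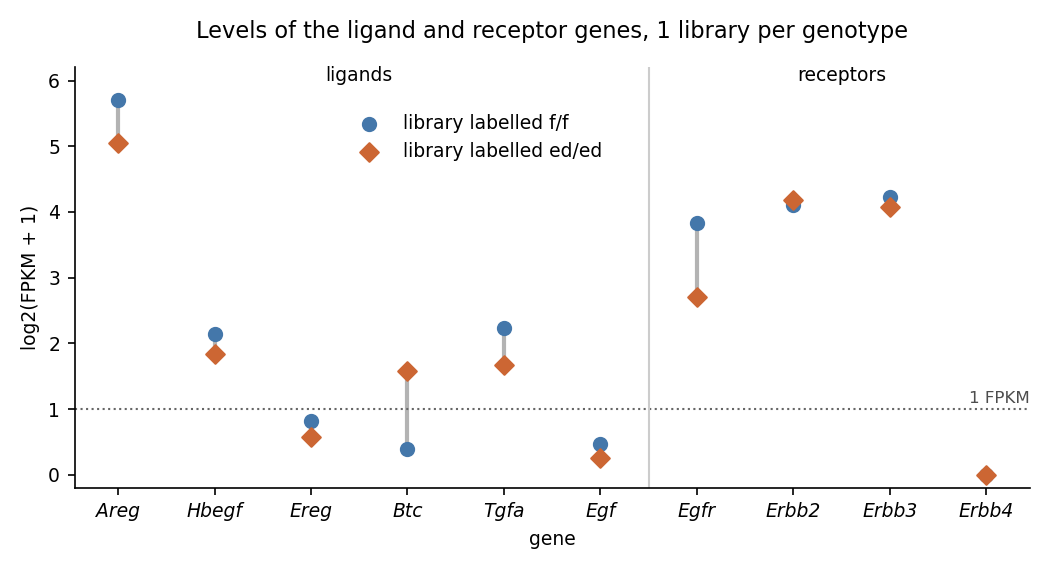
Level of each of the 6 ligand and 4 receptor genes on the scale of log2(FPKM + 1), in the library labelled f/f (circles) and the library labelled ed/ed (diamonds), 1 library each, with a dotted line at 1 FPKM. Areg was the most abundant gene in both libraries, Egfr and Btc had the widest gaps, and Erbb4 was listed at 0 in both.

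Areg, Ereg and Btc lie near each other on chromosome 5, and Egfr and Erbb2 lie on chromosome 11 (GRCm38). The start regions of Areg, of its neighbour Btc and of Egfr are shown because Areg was the most abundant of the 10 genes, while Btc and Egfr were the genes past 2-fold. Each runs from 250 bases before to 50 bases after the gene start, 5′ to 3′ along the gene, as given by RefSeq on GRCm38.p6. Capitals mark matches, on either strand, to the core promoter box spelled TATAAA, the GC box GGGCGG bound by SP1 or the cyclic AMP response element TGACGTCA. The AP-1 site TGANTCA and the steroid receptor half-site AGAACA, only a part of a full element, were searched for likewise. These motifs do not overlap in the regions shown.
Areg, chr5:91139349-91139648, plus strand: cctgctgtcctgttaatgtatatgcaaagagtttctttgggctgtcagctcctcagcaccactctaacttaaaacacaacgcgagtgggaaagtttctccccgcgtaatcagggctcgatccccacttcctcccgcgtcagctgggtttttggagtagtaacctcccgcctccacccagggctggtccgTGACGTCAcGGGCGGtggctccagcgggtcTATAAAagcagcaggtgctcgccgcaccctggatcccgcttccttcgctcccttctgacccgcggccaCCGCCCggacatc
Btc, chr5:91402945-91403244, minus strand: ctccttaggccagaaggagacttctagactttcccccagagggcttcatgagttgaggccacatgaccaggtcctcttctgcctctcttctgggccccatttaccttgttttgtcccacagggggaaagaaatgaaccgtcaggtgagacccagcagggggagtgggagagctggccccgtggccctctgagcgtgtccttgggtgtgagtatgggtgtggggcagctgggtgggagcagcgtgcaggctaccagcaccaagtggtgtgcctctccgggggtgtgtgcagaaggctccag
Egfr, chr11:16751953-16752252, plus strand: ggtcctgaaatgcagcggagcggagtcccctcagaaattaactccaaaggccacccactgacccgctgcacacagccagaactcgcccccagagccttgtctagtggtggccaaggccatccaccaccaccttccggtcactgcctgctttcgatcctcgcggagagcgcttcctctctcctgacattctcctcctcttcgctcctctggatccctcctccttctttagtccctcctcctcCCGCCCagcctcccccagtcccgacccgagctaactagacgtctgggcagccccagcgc

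In the Areg region TGACGTCA began 61 bases before the gene start, followed by GGGCGG at 52 and TATAAA at 31 bases before it, and a further GC box lay after the start. TGACGTCA was found in 1.79% of the 32851 regions of this length in the RefSeq table, TATAAA in 13.6%, GGGCGG in 35.7%, TGANTCA in 7.81% and AGAACA in 19.0%. The Egfr region held 1 GC box, which began 9 bases before the start, and the Btc region held no match to any of these motifs. Among the other 4 genes with a region in the table, Tgfa had 2 GC boxes, and Egf (with 2 regions), Erbb2 and Erbb4 had no match. GC content was 59.3% for Areg, 60.3% for Btc, 62.3% for Egfr and 70.7% for Tgfa, against a median of 52.7% over all regions. Hbegf, Ereg and Erbb3 have no entry in that table. A match is a run of letters and was not tested as a binding site.

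Areg (ENSMUSG00000029378; chromosome 5, 91139599 to 91148432, plus strand), which encodes amphiregulin, stood at 51.1 FPKM in the f/f library and 32.0 FPKM in ed/ed. It was the most abundant ligand by a wide margin in both libraries, with a level 13.9 times that of Tgfa in f/f and 12.4 times that of Hbegf in ed/ed. The estimated fragments were 902 and 534, and the FPKM in f/f was 1.60 times that in ed/ed (counting interval 1.43 to 1.78). The log2 ratio was -0.66, or -0.40 relative to the median of all genes, and 18.4% of genes compared had a lower ratio. Its sign held under all 4 scalings and without the length trend, with values from -0.58 to -0.38. Areg was thus lower in ed/ed by more than counting error, within 2-fold, in a library whose typical gene was also lower.

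Tgfa (ENSMUSG00000029999; chromosome 6, 86195223 to 86275719), encoding transforming growth factor alpha, stood at 3.69 FPKM in the f/f library and 2.18 FPKM in ed/ed. Its FPKM in f/f was 1.69 times that in ed/ed (counting interval 1.40 to 2.07; 289 and 161 estimated fragments), with a log2 ratio of -0.56. The log2 ratio of Tgfa was -0.36 by the reference genes, -0.28 with 5 FPKM added and -0.24 without the length trend. Gm43917, annotated on the opposite strand, overlaps Tgfa by 2360 nt, and the labels do not say whether the library kept strand. Hbegf (ENSMUSG00000024486; chromosome 18, 36504927 to 36515805), encoding heparin-binding EGF-like growth factor, stood at 3.44 FPKM in the f/f library and 2.59 FPKM in ed/ed. Its FPKM in f/f was 1.33 times that in ed/ed, with an interval of 1.01 to 1.74 from 133 and 95 estimated fragments. The log2 ratio of Hbegf was -0.31, close to the median of -0.26 over all genes. Tgfa was listed above Hbegf in f/f and below it in ed/ed, but their counting intervals overlapped in each library (3.28 to 4.15 and 2.87 to 4.06 FPKM in f/f, 1.85 to 2.54 and 2.09 to 3.16 FPKM in ed/ed).

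Btc (ENSMUSG00000082361; chromosome 5, 91357261 to 91402994, minus strand) encodes betacellulin, which binds EGFR and ERBB4. It stood at 0.308 FPKM in the f/f library and 1.98 FPKM in ed/ed, from 15 and 90 estimated fragments. The counting intervals of these levels, 0.175 to 0.515 and 1.59 to 2.43 FPKM, did not overlap. In FPKM the ratio was 6.41 (counting interval 3.65 to 11.8), whereas on the scale with 1 FPKM added it was 2.28-fold, a log2 ratio of 1.19 with an interval of 0.90 to 1.40. Of the genes compared, 98.2% had a lower ratio. Of genes under 5 FPKM in both libraries, 3.51% passed 2-fold on the higher side. All 4 scalings and removal of the length trend raised the log2 ratio of Btc, to between 1.25 and 1.41, so they could not undo its call. With 5 FPKM added its log2 ratio was 0.39, and a filter at 5 FPKM left the gene out. Nearness to Btc in level over both libraries was taken as distance on the log2(FPKM + 1) scale, leaving out genes with Rik, Gm or clone-like symbols. The nearest genes were Fas at 0.319 and 1.94 FPKM, Mfsd2b at 0.3003 and 2.08 and Mpv17l at 0.367 and 1.98, at distances of 0.02, 0.05 and 0.06. With 2 libraries such likeness describes level and ratio only.

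Ereg, encoding epiregulin, and Egf, encoding the founding ligand of the family, were scarce. Ereg (ENSMUSG00000029377; chromosome 5, 91074622 to 91093646) stood at 0.762 FPKM in the f/f library and 0.489 FPKM in ed/ed, from 54 and 33 estimated fragments. The FPKM of Ereg in f/f was 1.56 times that in ed/ed, and the interval of 0.986 to 2.47 included equal levels. Egf (ENSMUSG00000028017; chromosome 3, 129677565 to 129755316) stood at 0.382 and 0.196 FPKM, from 32 and 15 estimated fragments, a ratio of 1.95 with an interval of 1.06 to 4.01. Neither gene entered the comparison across genes, because both were under 1 FPKM in both libraries. The annotation places antisense transcripts over both genes, and the labels do not say whether the library kept strand.

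Areg and Btc, both on chromosome 5, differed between the libraries in opposite directions. Areg starts 46.0 kb beyond the end of Ereg, and Btc lies 209 kb beyond Areg on the other strand. Epgn, which encodes the ligand epigen and lies before Ereg, was listed at 0 in both libraries. The next protein-coding genes on either side were low and lay within 2-fold. Mthfd2l, a mitochondrial folate enzyme gene, stood at 2.04 FPKM in the f/f library and 3.802 FPKM in ed/ed (log2 ratio 0.66). Parm1 stood at 1.23 and 0.313 FPKM (log2 ratio -0.76). Along this stretch Areg was lower in ed/ed and Btc higher, and no direction is given for Ereg.

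Egfr (ENSMUSG00000020122; chromosome 11, 16752203 to 16918158, plus strand), the receptor for all 6 ligands, stood at 13.3 FPKM in the f/f library and 5.51 FPKM in ed/ed. Its level in f/f was 2.41 times that in ed/ed, with a counting interval of 2.24 to 2.61 for the 10208-nt transcript (2419 and 948 estimated fragments). On the scale with 1 FPKM added the gene was 2.196-fold lower, a log2 ratio of -1.13, and 3.88% of genes compared had a lower ratio. Set against the typical gene, its log2 ratio was -0.88. The annotation also holds a coding Egfr transcript of 2943 nt that lacks the 3′ part of the gene's longest form, and the deposited value does not separate the 2. If all fragments came from that shorter form, they would number 654 and 257, with an interval of 2.08 to 2.79. An antisense gene, Egfros, lies within Egfr, and its reads cannot be told apart here without strand.

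The 2-fold call of Egfr did not hold on every scale. Its log2 ratio was -1.06 after scaling by the sum of each library, -0.95 by the upper quartile, -0.89 by the median ratio and -0.88 by the reference genes, and -0.80 with 5 FPKM added. Ratios were lower for genes with longer transcripts, and Egfr has a long one. The median log2 ratio was -0.01 for transcripts of up to 1271 nt and -0.43 for those over 6610 nt, and 7.34% of genes at 6610 nt or more were called lower. With the length trend removed, the Egfr log2 ratio was -0.69. On that scale the family held 1 higher call (Btc) and 0 lower calls, where 4.32% of all genes were higher and 2.85% lower. Its sign was negative under every alternative run, so that Egfr was lower in the ed/ed library on each scale while its call was not stable.

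**Figure D2:**
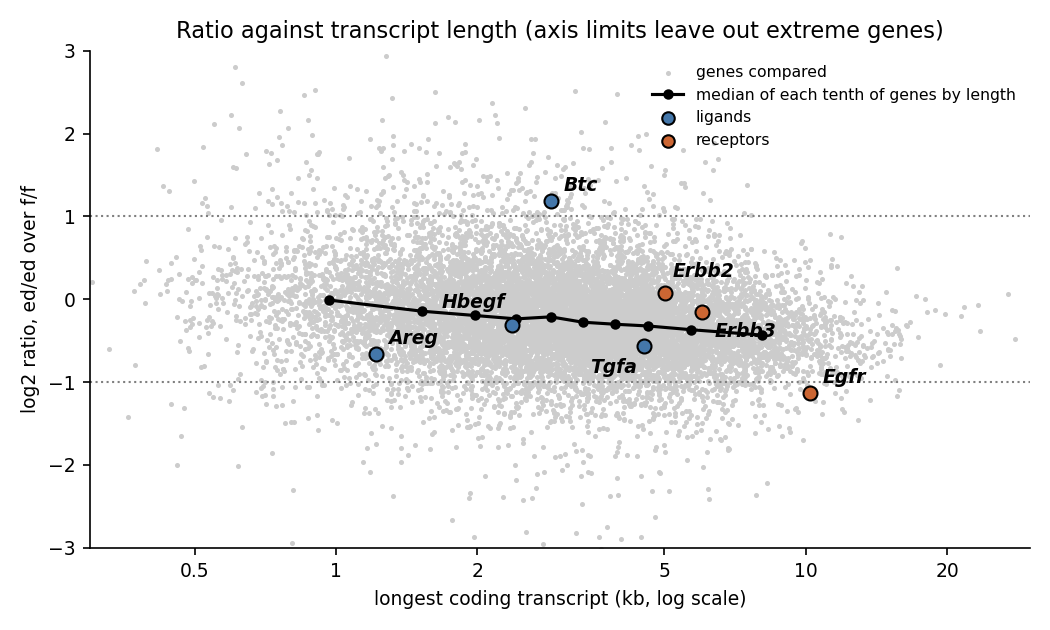
Log2 ratio of ed/ed over f/f (vertical, with 1 FPKM added) against the length of the longest coding transcript (horizontal, kb, log scale) for the genes compared (grey), with ligands in blue, receptors in orange and a black line through medians of 10 equal groups of genes by length. The line runs from -0.01 at the short end to -0.43 at the long end. Egfr lies under its long end, Erbb2 and Erbb3 above it, and Btc far above the line.

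Erbb2 and Erbb3 lay within 2-fold. Erbb2 (ENSMUSG00000062312; chromosome 11, 98412470 to 98437716), the partner receptor with no known ligand, stood at 16.2 FPKM in the f/f library and 17.1 FPKM in ed/ed. The ratio was 1.06, with a counting interval of 0.979 to 1.14 that included equal levels, and the log2 ratio was 0.07. That value depended on the scaling: it was 0.27 by the upper quartile, 0.34 by the median ratio, 0.35 by the reference genes and 0.42 without the length trend. Erbb3 (ENSMUSG00000018166; chromosome 10, 128567523 to 128589652), a neuregulin receptor, stood at 17.7 FPKM in the f/f library and 15.8 FPKM in ed/ed. The FPKM of Erbb3 in f/f was 1.12 times that in ed/ed, with a counting interval of 1.04 to 1.19 that left out equal levels. Its log2 ratio of -0.15, however, turned positive after scaling by the upper quartile (0.05), the median ratio (0.12) or the reference genes (0.13). It was also positive without the length trend (0.23), so no direction is given. Both receptors lay above the median of all genes. Erbb4 (ENSMUSG00000062209; chromosome 1, 68032186 to 69108059) was listed at 0 in both libraries, where a count of 0 would allow up to 0.0139 and 0.0147 FPKM of its longest coding transcript.

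**Figure D3:**
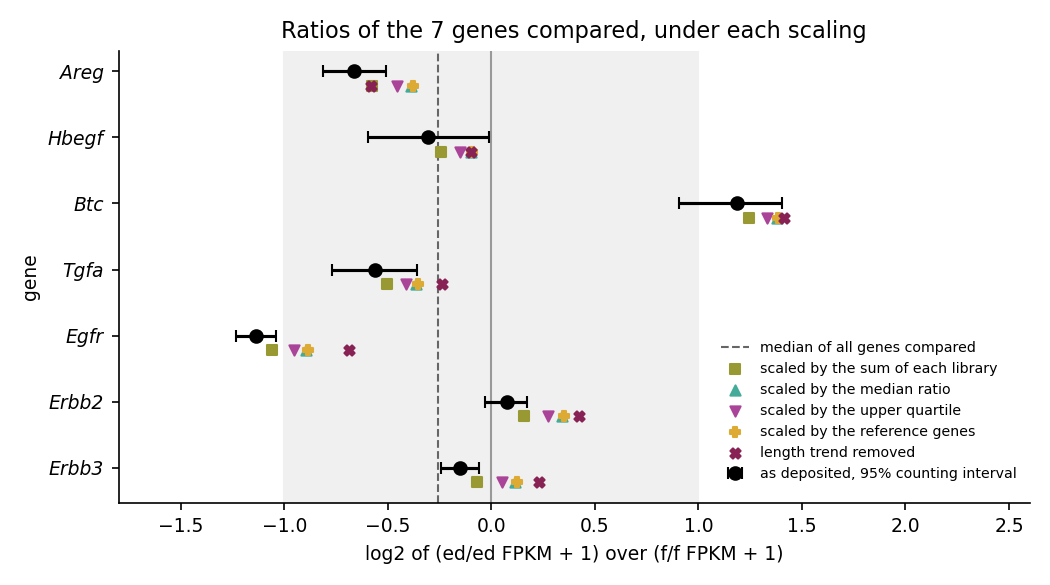
Log2 ratio of ed/ed over f/f for the 7 genes compared (black points, as deposited with 1 FPKM added, bars give the 95% counting interval), with values under 4 scalings and without the length trend in colour below each point; grey covers the range within 2-fold and the dashed line is the median of all genes. Each of these raised the ratios of both Btc and Egfr, so none could bring Btc back into the grey band. Btc stayed to the right of the band, whereas Egfr, at -1.13 as deposited, entered it under 4 of the 5.

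Shares within a library do not depend on how libraries are scaled to each other, but they still hold the length trend. Egfr has the longest transcript of the 3 receptors compared. With the trend removed, the log2 ratios were -0.69 for Egfr, 0.42 for Erbb2 and 0.23 for Erbb3. Of the summed receptor FPKM (47.2 in the f/f library and 38.5 in ed/ed), Egfr made up 28.2% in the f/f library and 14.3% in ed/ed. Erbb2 made up 34.4% and 44.6%, and Erbb3 37.4% and 41.1%. The Egfr level was 0.818 times that of Erbb2 in f/f and 0.321 times in ed/ed. The order of the receptors was Erbb3, Erbb2, Egfr in f/f and Erbb2, Erbb3, Egfr in ed/ed. The counting intervals of Erbb2 and Erbb3 overlapped in both libraries (15.4 to 17.1 and 16.9 to 18.5 FPKM in f/f, 16.3 to 18.1 and 15.0 to 16.6 FPKM in ed/ed), whereas that of Egfr lay below both (12.8 to 13.8 FPKM in f/f, 5.16 to 5.86 FPKM in ed/ed).

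Of the summed ligand FPKM (59.7 in the f/f library and 39.4 in ed/ed), Areg made up 85.6% in the f/f library and 81.1% in ed/ed. Without Areg the other ligands summed to 8.58 and 7.43 FPKM. Btc made up 0.516% in the f/f library and 5.02% in ed/ed, while Tgfa took 6.18% and 5.53% and Hbegf 5.75% and 6.57%. Btc was at 0.0835 times the level of Tgfa in f/f and 0.908 times in ed/ed. The order from high to low was Areg, Tgfa, Hbegf, Ereg, Egf, Btc in f/f and Areg, Hbegf, Tgfa, Btc, Ereg, Egf in ed/ed. In f/f, the neighbours Tgfa and Hbegf, and Egf and Btc, had overlapping counting intervals, whereas Ereg (0.572 to 0.994 FPKM) lay above Egf (0.265 to 0.548 FPKM). In ed/ed, the interval of Btc overlapped those of Hbegf and Tgfa and lay above that of Ereg (0.339 to 0.691 FPKM), which lay above that of Egf (0.108 to 0.317 FPKM).

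**Figure D4:**
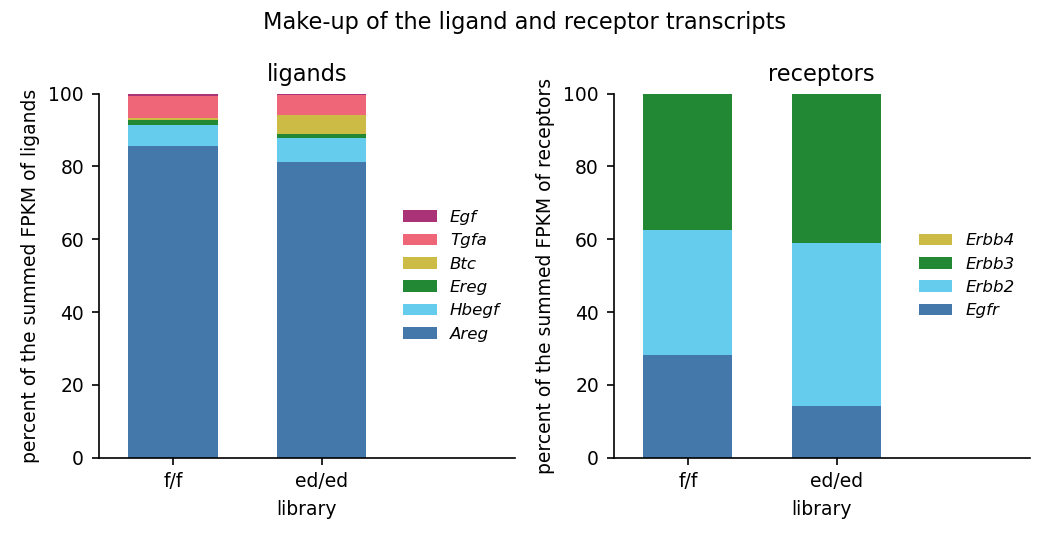
Percent of the summed FPKM of the 6 ligands (left) and of the 4 receptors (right) taken by each gene in the f/f and the ed/ed library, 1 library each. Areg filled 85.6% and 81.1% of the ligand bars, Btc widened from 0.516% to 5.02%, and Egfr narrowed from 28.2% to 14.3% of the receptor bars.

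Marker genes of several cell types also differed between the libraries. All 12 stroma markers had lower FPKM in ed/ed, 4 of them by 2-fold (2 with the length trend removed), and their summed level was 1423 FPKM in the f/f library and 711 FPKM in ed/ed. The 4 were the fibroblast receptor gene Pdgfra (28.0 and 9.30 FPKM) and the collagen genes Col6a1 (131 and 47.3), Col3a1 (247 and 96.4) and Col1a1 (78.6 and 35.6). Endothelial markers summed to 177 and 71.5 FPKM, and 6 of 7 compared were 2-fold lower (2 with the length trend removed). The 4 with the largest ratios were Cdh5 (42.0 and 12.0 FPKM), Tek (7.92 and 1.93), Tie1 (19.6 and 7.44) and Eng (29.2 and 11.8). Myometrial markers summed to 495 and 823 FPKM, with 1 of 8 called higher, Cnn1 at 48.2 and 122 FPKM (3 with the length trend removed). Macrophage markers summed to 163 and 315 FPKM, and Lyz2 had the largest level among them. Of 7 compared, 6 were higher and 1 lower, with 2 called higher, Aif1 at 7.27 and 22.3 FPKM and Lyz2 at 86.6 and 188. The 12 epithelium markers summed to 2903 FPKM in the f/f library and 2969 FPKM in ed/ed, with 5 lower and 7 higher and 0 past 2-fold (2 higher with the length trend removed). Blood and liver markers summed to 59.7 and 57.6 FPKM, and markers of oviduct, ovary and embryo to 42.3 and 63.1, each with 0 calls (1 higher with the length trend removed, Alas2 and Star). Nerve and Schwann cell markers summed to 2.52 and 2.96 FPKM with 0 calls. Of the 20 reference genes 1 was 2-fold lower, Polr2a at 18.1 and 5.02 FPKM, and their median log2 ratio was -0.29.

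Set against these sums, the order of the libraries depended on the denominator. As a share of the summed stroma markers, Egfr was 0.933% in the f/f library and 0.775% in ed/ed, 1.20 times lower, against the 2.41 times in FPKM. As a share of the summed epithelium markers, Egfr was 2.47 times lower, and of the endothelial sum it was 7.53% and 7.70%. Areg was 1.76% of the epithelium sum in the f/f library and 1.08% in ed/ed, but 3.59% and 4.50% of the stroma sum. Against single epithelial genes the direction differed too. Areg was 0.119 and 0.104 times the level of Krt8 and 0.391 and 0.165 times that of Epcam, lower in ed/ed. Krt19 went the other way: its FPKM in ed/ed was 0.572 times that in f/f, below the 0.625 of Areg. Btc was 0.0106% and 0.0666% of the epithelium sum. The part of these cell types in the levels of Egfr, Areg and Btc was not tested.

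The remaining ligands of the family were neuregulins and epigen. Of these 5 genes, 2 were compared and 0 passed 2-fold: Nrg4 stood at 4.72 and 4.96 FPKM in f/f and ed/ed, and Nrg2 at 2.06 and 1.64. Nrg1, a ligand of ERBB3 and ERBB4, stood at 0.523 and 0.131 FPKM, below the limit for comparison. Nrg3, like Epgn, was listed at 0 in both.

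The list for shedding and processing of the ligands mixed proteases with an inhibitor, so its counts give no direction for release. Of its 16 genes 15 were compared, with 3 lower and 1 higher by 2-fold. The median log2 ratio was -0.45, beside -0.26 over all genes. Timp3, an inhibitor of ADAM17, stood at 41.4 FPKM in the f/f library and 14.5 FPKM in ed/ed, and the metalloprotease gene Adam12 at 10.3 and 3.75. Pcsk5, a proprotein convertase gene, stood at 14.03 and 6.51 FPKM, whereas the rhomboid protease gene Rhbdl2 stood at 1.61 and 4.67. With the length trend removed 1 was lower and 1 higher, and the list median was -0.07. Adam17, the main protease for Areg, Hbegf and Tgfa, was chosen for its role after its values were seen, and stood at 17.8 and 16.1 FPKM.

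Proteins that bind the ligands or receptors at the surface had 8 genes, all compared, with 2 lower and 0 higher by 2-fold and a median of -0.39. Gpc1, encoding the heparan sulfate carrier glypican-1, stood at 35.7 FPKM in the f/f library and 16.03 FPKM in ed/ed, and Cd44 at 21.1 and 9.79. Cd81 stood at 101 and 60.8 FPKM, and Muc1, a mucin of the luminal surface, at 20.5 and 37.2. Without the length trend the count was 0 lower and 1 higher. Cd9, a tetraspanin that binds the Hbegf precursor, was also chosen after its values were seen, at 548 and 362 FPKM.

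Genes that restrain or sort the receptors lay within 2-fold. Of 24 compared, 0 were called in either direction, with a median of -0.27 and a range of -0.75 to 0.60. Stam2 and Usp8, of the endosomal sorting machinery, stood at 22.5 and 13.0 FPKM and at 22.2 and 14.4 FPKM in f/f and ed/ed. Lrig3, of a family that binds ErbB receptors, stood at 3.36 and 1.73 FPKM, and the receptor phosphatase gene Ptprj at 6.02 and 9.66. Without the length trend 1 was higher.

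Of 33 adaptor and relay genes compared, 1 was higher and 1 lower by 2-fold, with a median of -0.22. The adaptor gene Nck1 stood at 24.8 FPKM in the f/f library and 53.7 FPKM in ed/ed, and the kinase gene Braf at 14.7 and 6.41. Stat5a and Stat5b, transcription factor genes, stood at 9.18 and 4.32 FPKM and at 13.6 and 7.08 FPKM. With the length trend removed 1 was higher and 0 lower.

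Genes known to be induced through ERK were spread to both sides of 0. Of 25 genes 19 were compared, with 2 higher and 1 lower by 2-fold, 10 above and 9 below 0, and a median of 0.02. Only 6 of the 19 lay below the all-gene median of -0.26, and with the length trend removed the list median was 0.23. Dusp6, a phosphatase that switches off ERK, stood at 7.42 FPKM in the f/f library and 18.2 FPKM in ed/ed, Ier3 at 13.2 and 31.5, and Fos at 4.78 and 9.57. Phlda1 stood at 14.4 and 5.76 FPKM. Without the length trend 3 were higher and 1 lower.

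A further list held 12 genes of hormone and cytokine signalling, grouped as upstream of the ligands, a relation that was not tested and may not hold for each. Of these 11 were compared, with 1 lower and 0 higher by 2-fold and a median of -0.83. Pgr, the progesterone receptor gene, stood at 27.3 FPKM in the f/f library and 13.7 FPKM in ed/ed, and Hand2, its stromal target, at 40.6 and 18.8. Il6st, a subunit that the receptor for leukemia inhibitory factor shares with related receptors, stood at 26.2 and 13.3 FPKM, and Nr2f2 at 49.2 and 25.9. Lifr, the other subunit of that receptor, was chosen for its role after its values were seen. It went the other way, at 4.36 and 5.58 FPKM. The Areg level was 1.87 times that of Pgr in f/f and 2.33 times in ed/ed. Lif was listed at 0 in f/f and at 0.703 FPKM in ed/ed. Of the 11 genes, 7 lay below 0 and 4 above. Ihh, also named after its values were seen, stood at 41.0 FPKM in f/f and 21.7 FPKM in ed/ed (log2 ratio -0.89). Hand2, Nr2f2 and Pgr are expressed in stroma, whose markers were also lower. The epithelium markers summed to 2903 FPKM in f/f and 2969 FPKM in ed/ed. The part of stroma, or of any other cell type, in the values of this list was not tested. Without the length trend 0 of these genes were called.

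**Figure D5:**
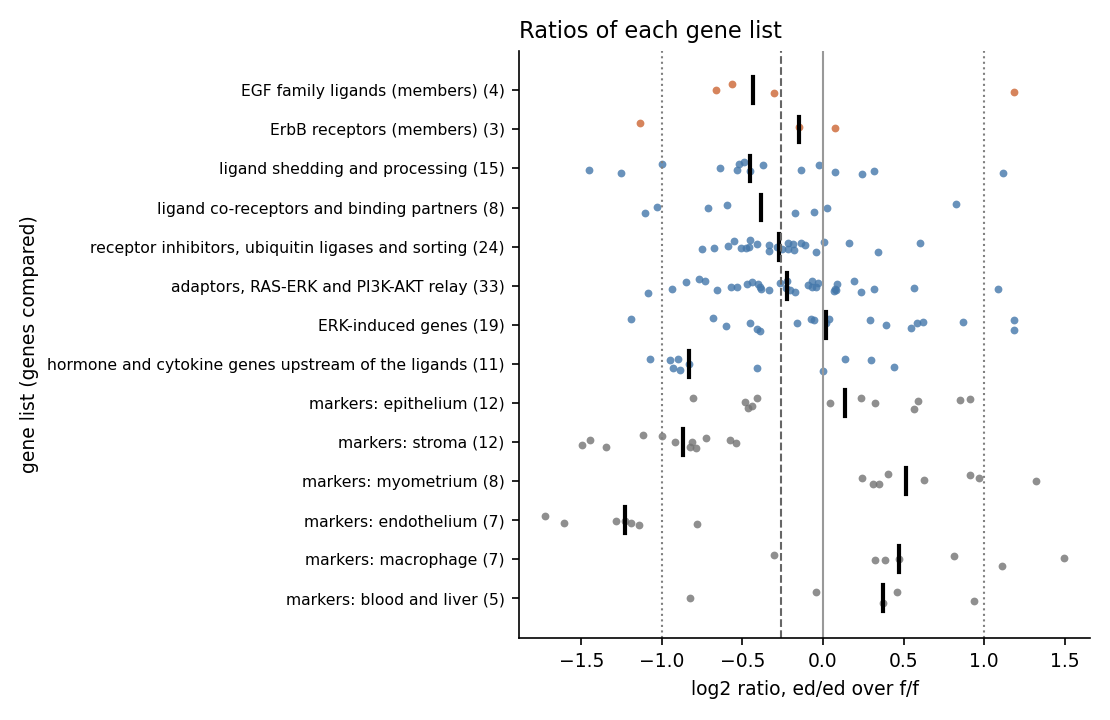
Log2 ratio of ed/ed over f/f (horizontal, with 1 FPKM added) for the genes compared in each list with 3 or more of them, reference genes left out (1 point a gene, number in brackets; the ligand and receptor lists in orange, other pathway lists in blue, cell type markers in grey; a black bar marks the list median; dotted lines mark 2-fold and the dashed line the median of all genes). Medians ran from -1.23 for endothelium markers to 0.52 for myometrium markers, with the ERK-induced genes at 0.02 and the 24 receptor inhibitors and sorting genes all within 2-fold.

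The m6A writer favours a short consensus, of which GGACT is a frequent form, so its letters were counted on the RNA strand of each gene's longest coding transcript. Hbegf held 6 in 2375 nt (2.53 per kb) and Areg 3 in 1215 nt (2.47 per kb), against a median of 1.0499 per kb and quartiles of 0.643 and 1.52 over all genes compared. Egf (1.68), Erbb3 (1.496), Erbb2 (1.20) and Egfr (1.18 per kb, 12 in all) came next. Tgfa (0.884), Erbb4 (0.831) and Btc (0.695) held fewer, and Ereg held 1 in 4128 nt (0.242 per kb). Of the genes past 2-fold, Egfr lay just above that median and Btc close to the lower quartile. These counts describe sequence, and methylation was not measured.

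With Rik, Gm and clone-like symbols again left out, the genes nearest to Egfr in level over both libraries were Appbp2, Kif20a and Gas2l3. Appbp2 stood at 13.4 and 5.498 FPKM, Kif20a at 13.4 and 5.42 and Gas2l3 at 13.6 and 5.53. Their distances were 0.02, 0.02 and 0.03 on the log2(FPKM + 1) scale.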

How the data were processed

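Each library came as 1 table, a value per gene beside its symbol and Ensembl ID. The deposited values were read as FPKM, since the submitters' processing notes list Cufflinks 2.2.1, beside HISAT2 2.2.1. No header names the unit. RNA was extracted with TRIzol and libraries were made with a TruSeq RNA kit, per the labels' protocols. The processing notes name mm9 and mm10 with no role, and no source names the annotation, so GRCm38 places locate genes and not reads. FPKM divides by transcript length and by total fragments, so abundant genes or RNA quality can move many values together.

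Ratios are log2((ed/ed + 1)/(f/f + 1)) over genes that reach 1 FPKM in at least 1 library, with a 2-fold rule in place of a test. Transcripts came from GENCODE M21, and 99.6% of the genes compared had a coding length. Fragments were estimated from the spacing of low values (FPKM times length less 250 nt) in 240 genes of each library with 1 transcript over 1000 nt. The spacing was 0.0547 in the f/f library and 0.0578 in ed/ed. The mean cosine of the fit, which is 1 if every value sits on a whole multiple, was 0.408 in f/f and 0.436 in ed/ed. Ratio intervals are exact Clopper-Pearson, level intervals exact Poisson and a count of 0 allows 3 fragments. All cover counting error only. A lowess curve on log2 length (fraction 0.3) gave the length trend (statsmodels 0.14.6, scipy 1.17.1, Python 3.11.15). Depth, calls, trend removal and intervals were tested on simulated data. The genes changed there started at 5 FPKM or more and changed by well over 2-fold. Intervals were tested at counts above that of Btc in f/f. Calls of low genes such as Btc, and changes near 2-fold such as that of Egfr, were therefore not covered. The simulated libraries were built with the same 250-nt rule, so that rule itself was not tested.

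The members and the 18 gene lists (221 entries, all matched) were chosen with earlier results of these data known. In each pathway list up to 4 genes of largest absolute ratio and every call, where 5 or fewer, are named, in marker and reference lists the calls (for endothelium, with more calls, the 4 largest ratios), with the 3 genes nearest in level to the highest and lowest member. The search for nearest genes covered the genes compared, without Rik, Gm or clone-like symbols. Lists were described by counts and medians, with no set test.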

Additional observations from a re-analysis of the deposited data

How the results depend on the processing

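The 2-fold count of ligands and receptors, 1 higher and 1 lower, rested on Btc and Egfr. The counts were 0 and 0 with a pseudocount of 5 FPKM, and 0 were higher with a filter at 5 FPKM, which removes Btc. With the libraries scaled by reference genes, upper quartile or median ratio, or with the length trend removed, 0 were lower and Btc stayed higher. These settings raised the ratios of both Egfr and Btc, so they could undo only the lower call. A 1.5-fold rule gave 2 lower (Egfr and Areg) and 1 higher among the 7 genes. Under that rule 2850 of all 12165 genes compared were lower and 856 higher. The median log2 ratio of the genes compared was -0.31 and ran from -0.41 to -0.09 over the alternatives that give one. The 5 FPKM filter leaves 4 of the 7 genes, and no filter adds Ereg and Egf. Of these genes only Erbb3 changed sign in the alternatives run.

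Over all genes, 326 were higher and 757 lower. The counts were 583 and 398 by the median ratio, 506 and 466 by the upper quartile, 595 and 392 by the reference genes, and 523 and 345 without the length trend. They were 489 and 1336 with a pseudocount of 0.1, 112 and 207 with 5, 387 and 608 by the library sum, 218 and 563 with the 5 FPKM filter, and 856 and 2850 at 1.5-fold. The scalings shifted log2 ratios by 0.09 (sum), 0.21 (upper quartile), 0.28 (median ratio) and 0.29 (reference genes). No paired analysis was possible because each genotype has 1 library, and no replicate could be left out. Depth limits Btc, Egf and Ereg, with 15, 32 and 54 estimated fragments in f/f.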
